A study of Mus musculus with 36 samples.

Results

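The mitochondrial carriers of the Slc25 family were described in mouse CD8 T cells on expression arrays. Members were the genes whose current symbol is Slc25a followed by a number, each read from 1 probe set, the one with the highest mean over the 36 arrays. The rule found 44 members among 18193 genes measured with a single symbol. It did not use any difference between groups.

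In the study, T cells from OT-I mice, whose T cell receptor recognises an ovalbumin peptide, were transduced with a short hairpin RNA and transferred into mice bearing B16 tumors, a mouse melanoma. CD8 T cells were later purified from the tumor or the spleen. The hairpins targeted Ppp2r2d, Egr2, Ptpn2, Arhgap5 or Alk, and the control hairpin targeted LacZ, a bacterial gene that mouse cells lack, so every group carried a hairpin. Each of the 6 transductions had 3 arrays labelled tumor and 3 labelled spleen, which gave 12 groups. The labels do not give the animals' age, the time between transfer and harvest, or whether arrays of a group came from separate animals, so p-values measure the spread between these arrays.

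The tissue labels and the marker genes pointed in opposite directions. Melanocyte pigment genes, which B16 cells express, were lower in labelled tumor for 10 of 11 markers, and their summed level was 2.89 to 4.23 (log2) in arrays labelled tumor and 6.79 to 8.52 in arrays labelled spleen. Dct, a pigment enzyme gene, lay between −2.58 and −0.97 in labelled tumor and between 4.29 and 5.87 in labelled spleen. Macrophage markers were lower in labelled tumor for 8 of 9, with a summed level of 1.87 to 2.86 in labelled tumor and 5.40 to 8.20 in labelled spleen. T cell markers differed for 1 of 9, and Cd8a read 6.25 to 7.21 in labelled tumor and 6.13 to 7.46 in labelled spleen. Erythroid markers were higher in labelled tumor for 6 of 8 and B cell markers for 6 of 6. Of the neutrophil markers Camp, Ngp, Elane and Mpo were higher there, and S100a8, S100a9 and Ltf did not pass. Of the stroma and endothelium markers Col1a1, Col3a1 and Pdgfrb were lower and Pecam1, Cdh5 and Dcn higher, and Col1a2 and Kdr did not pass. The groups are therefore called labelled tumor and labelled spleen throughout, and every direction below is that of the labels. The part of other cell types in the carriers' differences was not tested, and in bulk samples fewer cells of a type and less RNA per cell cannot be told apart.

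Some arrays stood apart. Replicate 1 of Ptpn2 labelled tumor correlated with its nearest array at 0.905, the 3 LacZ labelled spleen arrays at 0.968 to 0.975, and the other arrays at 0.983 to 0.994. The difference between 3′ and 5′ Gapdh probe sets, a sign of RNA integrity, was 2.94 on that Ptpn2 array, 0.86 to 1.14 on the other labelled tumor arrays, 0.25 to 0.83 on the hairpin arrays labelled spleen and 0.83 to 1.39 on the LacZ arrays labelled spleen. The lowest value on 3 arrays (LacZ labelled spleen replicate 2, Egr2 labelled tumor replicate 2 and Ptpn2 labelled tumor replicate 3) was −1.45 to −1.38, against −4.51 to −1.88 elsewhere. Ppp2r2d itself was 3.31 to 3.88 in Ppp2r2d labelled spleen arrays and 4.31 to 5.51 in LacZ labelled spleen arrays, a difference of −1.37 (limma, adjusted p = 0.0286). No other targeted gene, and not Ppp2r2d in labelled tumor, passed the threshold against LacZ. Egr2 and Ptpn2 had differences of −1.19 and −0.79 in labelled spleen and −0.08 and −0.38 in labelled tumor under their own hairpins. Arhgap5 differed by 0.45 in labelled spleen and −0.47 in labelled tumor, and Alk by −1.32 and 1.13, so 2 of these values lay above LacZ.

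Slc25 carriers are small proteins that mostly sit in the inner mitochondrial membrane, where each exchanges or imports particular metabolites, nucleotides or cofactors that cannot cross by themselves. They connect the cytosol with the citric acid cycle, oxidative phosphorylation, iron-sulfur cluster assembly and amino acid breakdown. In activated T cells, which build biomass quickly, such exchange is known to feed lipid, nucleotide and glutathione metabolism.

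The promoters of 3 members are shown because these were the members whose 18 labelled tumor arrays all lay below the 18 labelled spleen arrays. Such a separation was found in 3 of 44 members and in 6.51% of all genes. The windows run from 250 bases before to 50 bases after the annotated start in RefSeq on GRCm38.p6, 5′ to 3′ on the gene's strand. Slc25a13 is at chr6:6217124-6217423 on the minus strand, Slc25a10 at chr11:120491587-120491886 on the plus strand and Slc25a1 at chr16:17928170-17928469 on the minus strand. Capitals mark the E-box CACGTG, and CCAAT or its reverse complement ATTGG.
Slc25a13: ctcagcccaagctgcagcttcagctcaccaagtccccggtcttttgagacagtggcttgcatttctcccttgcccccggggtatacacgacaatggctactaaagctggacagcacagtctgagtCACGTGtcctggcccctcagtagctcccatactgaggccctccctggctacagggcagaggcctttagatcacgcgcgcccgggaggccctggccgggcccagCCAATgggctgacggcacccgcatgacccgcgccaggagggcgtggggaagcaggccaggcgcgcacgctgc
Slc25a10: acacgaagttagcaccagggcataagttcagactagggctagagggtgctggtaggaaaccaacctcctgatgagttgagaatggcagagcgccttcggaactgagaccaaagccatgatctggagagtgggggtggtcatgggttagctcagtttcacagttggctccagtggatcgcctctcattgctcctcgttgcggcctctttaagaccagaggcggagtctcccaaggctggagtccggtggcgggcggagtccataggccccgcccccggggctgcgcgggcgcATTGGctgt
Slc25a1: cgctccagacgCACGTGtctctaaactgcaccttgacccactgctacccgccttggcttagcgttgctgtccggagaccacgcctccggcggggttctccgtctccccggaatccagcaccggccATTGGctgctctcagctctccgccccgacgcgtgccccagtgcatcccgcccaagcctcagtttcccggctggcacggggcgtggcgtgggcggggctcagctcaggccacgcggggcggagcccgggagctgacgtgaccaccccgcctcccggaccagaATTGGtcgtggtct
CACGTG occurs in the Slc25a13 and Slc25a1 windows and not in that of Slc25a10, and all 3 hold a CCAAT box on one strand. Of the 44 members, 34 had a window. CACGTG was in 5 of 19 windows (26.3%) of members lower in labelled tumor, in 2 of 10 (20.0%) of members higher there, in 1 of 14 (7.14%) of members that did not pass the test and in 7.15% of all 32851 windows. The windows among lower members belong to Slc25a13, Slc25a1, Slc25a33 and Slc25a14, whose 3 windows hold it in 2 cases. CCAAT on either strand was in 52.6% of windows of lower members, 60.0% of those of higher members, 35.7% of those that did not pass and 37.4% of all windows. These matches describe letters and show no binding.

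The 2 tissue labels were compared first. Averaged over the 6 transductions, 19 members were lower in labelled tumor, 10 were higher and 15 did not pass (limma, adjusted p under 0.05 over all 18193 genes). Over all genes, 33.1% were called lower and 37.6% higher. The median difference, labelled tumor minus labelled spleen, was −0.22 (log2) over the members and 0.13 over all genes, and 15 of 44 members lay above the all-gene median. After quantile normalization the median was −0.09 over the members and 0.00 over all genes. The all-gene median was −0.04 after cyclic loess, so small differences depend on the scale. Without the 3 arrays of raised lowest value and the Ptpn2 array that stood apart, 10 members were higher and 19 lower, of which 17 were among the 19 of the full set. Slc25a16 (−0.26, limma adjusted p = 0.188) and Slc25a40 (−0.33, limma adjusted p = 0.0595) then lost their calls, and Slc25a12 and Slc25a46 gained one.

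**Figure D1:**
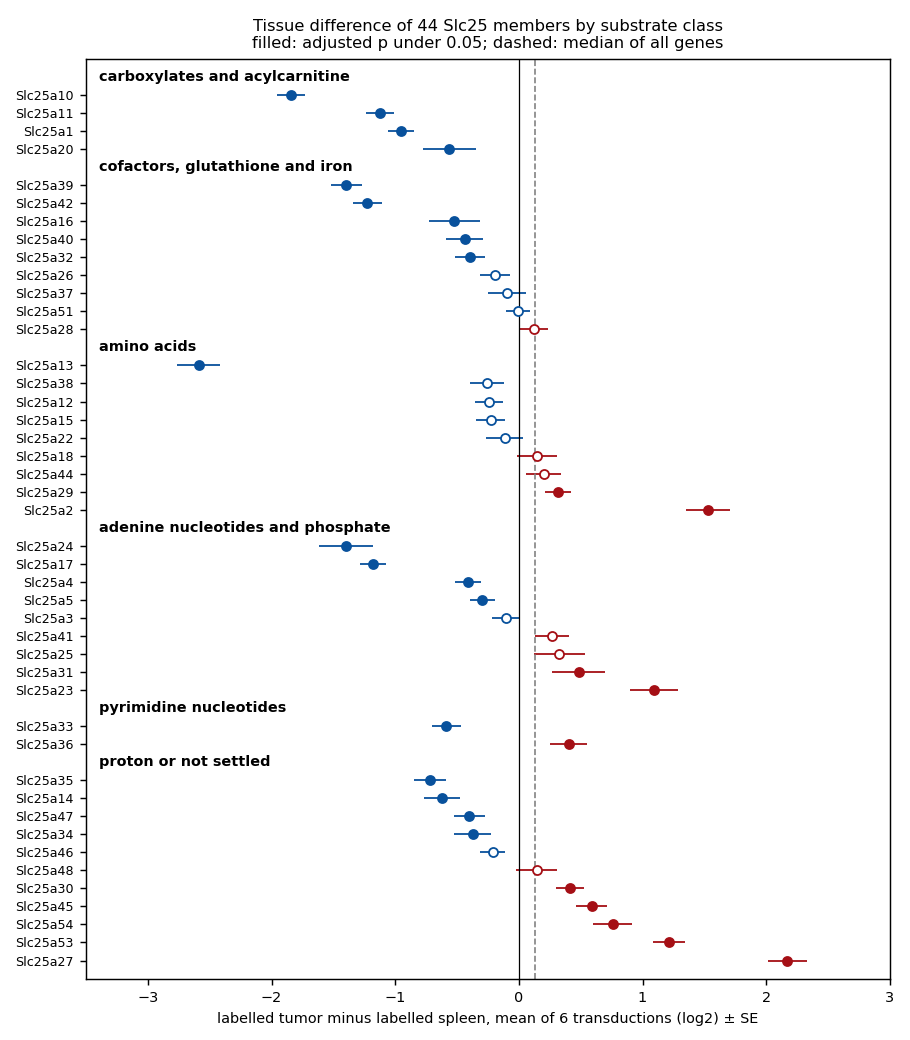
Difference of each of the 44 members between labelled tumor and labelled spleen (log2, x axis), averaged over the 6 transductions, grouped by substrate; bars are standard errors, filled points passed the test and the dashed line is the median of all genes (0.13). Members reach from −2.59 for Slc25a13 to 2.17 for Slc25a27.

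The carboxylate and acylcarnitine carriers were all lower, 4 of 4, with a median of −1.04. Slc25a10, which exchanges malate and succinate for phosphate, read −0.63, −0.21 and 0.43 (lowest, median and highest of 18 arrays) in labelled tumor and 1.02, 1.72 and 2.14 in labelled spleen. Its groups did not overlap, and the difference was −1.85 ± 0.11 (SE, limma adjusted p = 2.34e-15). Slc25a1, the citrate carrier that feeds cytosolic acetyl-CoA, read −0.35, 0.50 and 0.90 in labelled tumor and 0.97, 1.43 and 1.87 in labelled spleen. It too was lower on every labelled tumor array, by −0.96 ± 0.11 (adjusted p = 2.26e-09, limma).

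Slc25a11, the oxoglutarate-malate carrier of the malate-aspartate shuttle, read 2.00, 2.48 and 3.17 in labelled tumor and 2.79, 3.69 and 4.13 in labelled spleen, with a small overlap. It differed by −1.12 ± 0.11 (limma, adjusted p = 3.24e-10). Slc25a20, which imports acylcarnitines for fatty acid oxidation, read 1.67, 5.22 and 6.16 in labelled tumor and 5.15, 5.60 and 6.19 in labelled spleen. Most of its arrays overlapped, and the difference was −0.56 ± 0.21 (limma, adjusted p = 0.0211) and −0.36 without Ptpn2 labelled tumor replicate 1. It did not pass after quantile normalization (−0.28, limma adjusted p = 0.184) or cyclic loess (−0.33, 0.0965).

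Among 9 amino acid carriers 1 was lower and 2 were higher, with a median of −0.12. Slc25a13, or citrin, which exports aspartate for glutamate in the malate-aspartate shuttle, had the largest difference of all members. It read 0.03, 0.85 and 1.83 in labelled tumor and 2.25, 3.39 and 5.65 in labelled spleen, with no overlap, a difference of −2.59 ± 0.17 (limma, adjusted p = 1.99e-14). Its close relative Slc25a12, or aralar, did not pass (−0.24, limma adjusted p = 0.0507), and its difference changed sign under other scalings. With the mean of its probe sets Slc25a12 was called higher, by 0.33 (limma, adjusted p = 0.00317).

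Slc25a2, an ornithine carrier, went the other way. It read −0.77, 0.30 and 0.95 in labelled tumor and −2.52, −1.29 and 0.06 in labelled spleen, with some overlap, a difference of 1.53 ± 0.18 (limma, adjusted p = 6.11e-09). Slc25a29, a carrier of basic amino acids, was higher by 0.32 (limma, adjusted p = 0.0105), but did not pass after quantile normalization (0.14, limma adjusted p = 0.214) or cyclic loess (0.17, 0.0945). The other ornithine carrier Slc25a15, the glutamate carriers Slc25a22 and Slc25a18, the glycine carrier Slc25a38 and Slc25a44, which carries branched-chain amino acids, had differences of −0.23, −0.12, 0.15, −0.25 and 0.20 and did not pass.

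Of 9 cofactor carriers, 5 were lower and none was higher on the deposited scale, with a median of −0.39. Slc25a39, needed for mitochondrial glutathione import, read 2.97, 3.53 and 4.38 in labelled tumor and 4.37, 4.91 and 5.75 in labelled spleen. The highest labelled tumor array barely passed the lowest labelled spleen array, and the difference was −1.40 ± 0.13 (limma, adjusted p = 3.47e-11). Slc25a40, the second glutathione carrier, was lower by a smaller amount, −0.44 (limma, adjusted p = 0.0111), and did not pass after quantile normalization (−0.21, limma adjusted p = 0.0774) or cyclic loess (−0.22, 0.0534).

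Slc25a42, a coenzyme A carrier, read −1.31, −0.75 and −0.30 in labelled tumor and −0.43, 0.41 and 1.66 in labelled spleen. The ranges overlapped slightly, with a difference of −1.22 ± 0.12 (limma, adjusted p = 1.61e-10). That value belongs to 1 probe set: the mean of all its probe sets gave −0.09 (limma, adjusted p = 0.405), and another of them was called higher by 1.04. Slc25a16, linked to coenzyme A, and Slc25a32, which carries folate and FAD, were lower by −0.52 and −0.39. The call for Slc25a16 ended without LacZ labelled tumor replicate 2 (limma, adjusted p = 0.0528) and after quantile normalization (0.0755). That for Slc25a32 ended after quantile normalization (−0.13), cyclic loess (−0.15) and with the mean of its probe sets (−0.17). The S-adenosylmethionine carrier Slc25a26, the mitoferrins Slc25a37 and Slc25a28, which import iron, and the NAD carrier Slc25a51 did not pass, with −0.20, −0.09, 0.12 and −0.01. After quantile normalization Slc25a28 and Slc25a51 were called higher, by 0.40 and 0.29 (limma, adjusted p = 1.71e-05 and 0.000686). After cyclic loess Slc25a28 and Slc25a51 were called higher by 0.37 and 0.23 (limma, adjusted p = 2.17e-05 and 0.00654).

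Among 9 carriers of adenine nucleotides and phosphate, 4 were lower and 2 higher, with a median of −0.10. Slc25a24, a calcium-regulated ATP-Mg/phosphate carrier, read 0.90, 4.26 and 5.09 in labelled tumor and 4.85, 5.62 and 6.62 in labelled spleen. The lowest labelled tumor array is Ptpn2 replicate 1, and the difference was −1.40 ± 0.22 with it and −1.19 without it (limma, adjusted p = 1.47e-06 with it). Slc25a23, a carrier of the same class, read −1.83, −0.69 and 0.51 in labelled tumor and −2.78, −1.88 and −0.51 in labelled spleen. It overlapped between labels and was higher in labelled tumor by 1.09 ± 0.19 (limma, adjusted p = 1.38e-05).

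Slc25a17, a peroxisomal cofactor carrier, read 2.27, 2.79 and 3.27 in labelled tumor and 2.94, 3.82 and 4.67 in labelled spleen. It differed by −1.18 ± 0.11 (limma, adjusted p = 3.73e-11), but the mean of its probe sets gave −0.27 (limma, adjusted p = 0.0732) and another probe set was called higher by 0.65. The ADP/ATP carriers Slc25a4 and Slc25a5, which export mitochondrial ATP, were lower by −0.41 and −0.30. After cyclic loess they differed by −0.19 and −0.10, and Slc25a5 then did not pass (limma, adjusted p = 0.156), nor did it without LacZ (0.0506). For Slc25a31, the testis-type ADP/ATP carrier, the difference of 0.48 (limma, adjusted p = 0.0433) turned to −0.02 after quantile normalization. After cyclic loess Slc25a31 was called lower, by −0.12 (limma, adjusted p = 0.0131). Its call as higher ended without any 1 of 19 arrays (limma, adjusted p up to 0.0886). The phosphate carrier Slc25a3 (−0.10) and the ATP-Mg/phosphate carriers Slc25a25 (0.33) and Slc25a41 (0.27) did not pass. With the mean of their probe sets Slc25a3 and Slc25a25 were called higher, by 0.49 and 0.55 (limma, adjusted p = 6.5e-05 and 0.000364).

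The pyrimidine nucleotide carriers split: Slc25a33 was lower by −0.59 and Slc25a36 higher by 0.40 (limma, adjusted p = 8.18e-05 and 0.0205). The mean of its probe sets gave 0.24 for Slc25a36, which did not pass (limma, adjusted p = 0.088). Among the 11 members that act as proton carriers or whose substrate is not settled, 4 were lower and 5 higher, with a median of 0.14. Slc25a27, or UCP4, an uncoupling protein known from brain, read −1.01, 0.12 and 1.39 in labelled tumor and −3.14, −2.36 and −0.12 in labelled spleen. The labels overlapped, and it was higher by 2.17 ± 0.16 (limma, adjusted p = 1.87e-13).

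Slc25a53 read 2.91, 3.62 and 4.24 in labelled tumor and 1.48, 2.40 and 3.26 in labelled spleen, with overlap at the edge and a difference of 1.21 ± 0.13 (limma, adjusted p = 1.61e-09). Slc25a54, Slc25a45 and Slc25a30 (KMCP1) were higher by 0.76, 0.59 and 0.41. Slc25a54 differed by 0.35 after quantile normalization and 0.27 after cyclic loess, both called. Slc25a35, Slc25a14 (UCP5), Slc25a47 and Slc25a34 were lower by −0.72, −0.62, −0.40 and −0.37. Slc25a46, found in the outer membrane, and Slc25a48 had differences of −0.21 and 0.14 and did not pass. The call for Slc25a34 ended without any 1 of 4 arrays, Ppp2r2d labelled spleen replicate 2 (limma, adjusted p = 0.0551), Egr2 labelled spleen replicate 3 (0.0572), Ppp2r2d labelled tumor replicate 2 (0.0546) and Egr2 labelled tumor replicate 1 (0.0506).

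**Figure D2:**
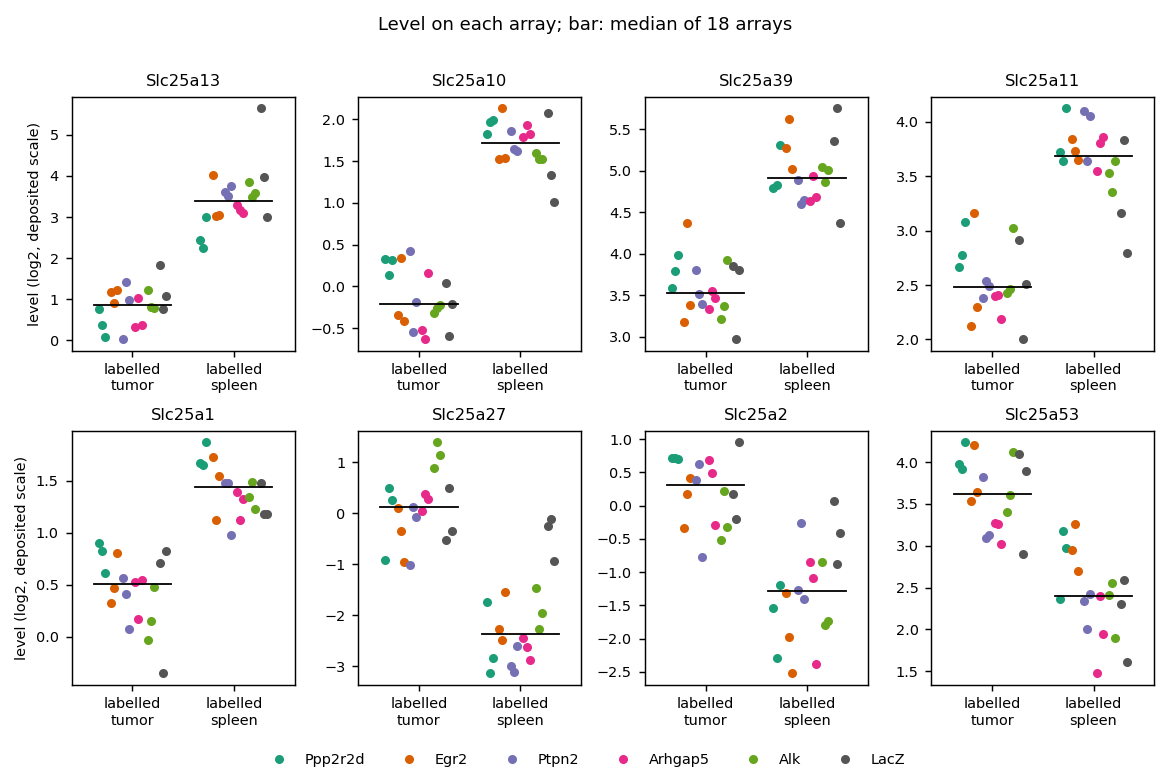
Log2 level of 8 members on each array, labelled tumor left of labelled spleen, coloured by transduction, with the median of 18 arrays as a bar. The 18 labelled tumor arrays of Slc25a13, Slc25a10 and Slc25a1 lie below all 18 labelled spleen arrays.

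No member lay above on all 18 labelled tumor arrays. Genes lower without overlap made up 6.51% of all genes and 3 of 44 members, and genes higher without overlap 1.35% of all genes. The 6 tissue comparisons share no arrays, so each was read by itself.

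Called members numbered 4 higher and 7 lower in Ppp2r2d (all genes 8.10% and 14.5%), 5 and 9 in Egr2 (10.5% and 15.9%), and 4 and 12 in Ptpn2 (24.1% and 25.1%). They numbered 5 higher and 9 lower in Arhgap5 (10.7% and 21.6%), 7 and 10 in Alk (33.2% and 20.0%) and 2 and 8 in LacZ (6.31% and 18.9%). In Alk 41.2% of the called members were higher, against 31.2% after quantile normalization or cyclic loess and 50% with equal array medians. Of the 9683 genes called in Alk, 6038 were higher. The members' median was below the all-gene median in Egr2, Ptpn2, Arhgap5 and Alk (−0.17, −0.31, −0.31 and −0.12 against 0.25, 0.13, 0.03 and 0.34) and above it in Ppp2r2d and LacZ (0.03 and −0.42 against −0.11 and −0.48).

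Slc25a13, Slc25a10, Slc25a39, Slc25a11 and Slc25a1 were lower in all 6 transductions, a pattern held by 9.38% of all genes. Slc25a13 differed by −2.17 in Ppp2r2d, −2.26 in Egr2, −2.82 in Ptpn2, −2.60 in Arhgap5, −2.71 in Alk and −2.98 in LacZ. Slc25a10 spanned −2.18 in Arhgap5 to −1.67 in Ppp2r2d, and Slc25a39 −1.66 in Egr2 to −1.14 in Ptpn2. The calls for these 3 genes held under every alternative in every transduction. For Slc25a11 single arrays ended the calls in Ppp2r2d, Alk and LacZ, and for Slc25a1 in Arhgap5 and LacZ. Slc25a11 reached an adjusted p of 0.0566 (limma) without Ppp2r2d labelled spleen replicate 3 and 0.0548 without Alk labelled tumor replicate 1, and Slc25a1 0.0562 without Arhgap5 labelled tumor replicate 2.

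Slc25a27, Slc25a2 and Slc25a53 were higher in at least 5 of 6 transductions, which 3.92% of all genes were. Slc25a27 was higher by 2.51, 1.71, 2.58, 2.89 and 3.03 in Ppp2r2d, Egr2, Ptpn2, Arhgap5 and Alk, with 0.31 in LacZ. Slc25a2 was higher by 2.39, 2.02, 1.06, 1.74 and 1.26 in the 5 hairpins, with 0.71 in LacZ, and single arrays ended its calls in Ptpn2 and Alk. Slc25a53 was called in all but Egr2, where it differed by 0.83, and its Ppp2r2d call ended without labelled spleen replicate 1 (limma, adjusted p = 0.0534). Its Ptpn2 call ended without labelled tumor replicate 1 (limma, adjusted p = 0.0526) and when its probe sets were averaged (0.32, limma adjusted p = 0.256), and its LacZ call with the compared arrays alone (0.0539). Another 17 members were called in no transduction.

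**Figure D3:**
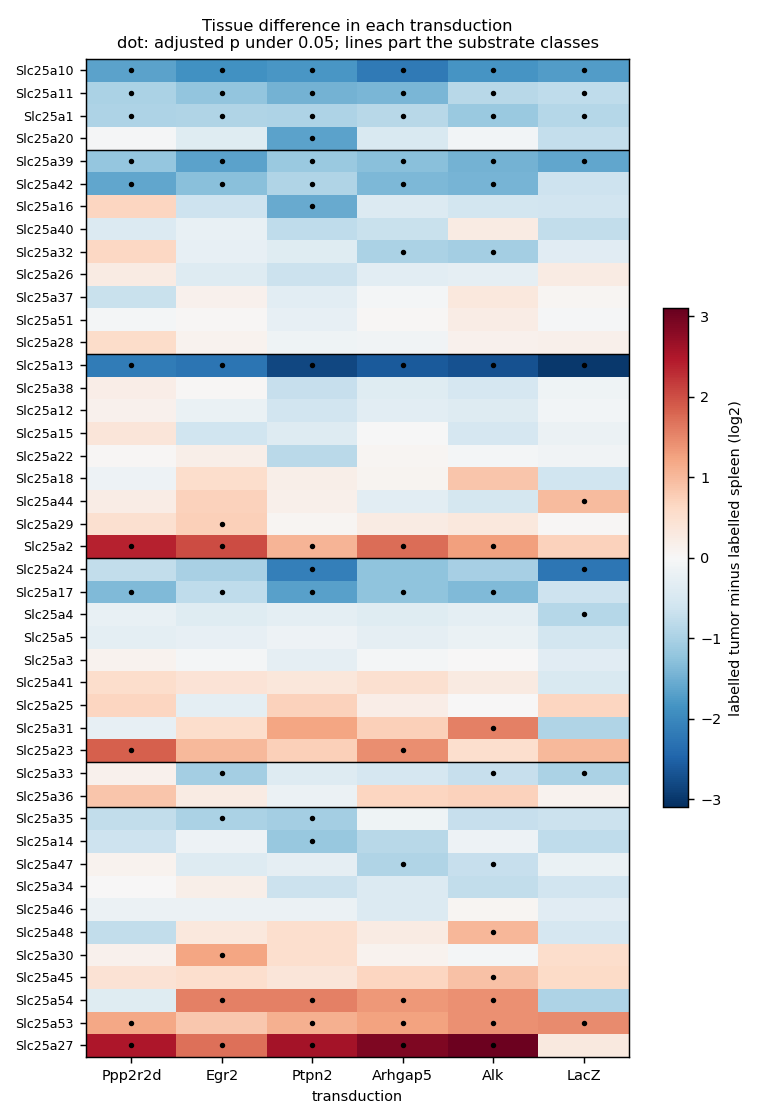
Difference between labelled tumor and labelled spleen (log2, colour) for the 44 members (rows, by substrate) in each of the 6 transductions (columns); a dot marks a call. Slc25a13, Slc25a10, Slc25a39, Slc25a11 and Slc25a1 carry a dot in every column.

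Members that carry the same kind of cargo were also compared within each array. The pairs were chosen with the members' differences known, so these values are a description with no test. The within-array difference of Slc25a13 from Slc25a12 differed by −2.35 (log2) between labelled tumor and labelled spleen, without overlap between labels, and was negative in 6 of 6 transductions. The same quantity was −2.49 for Slc25a24 from Slc25a23, −0.96 for Slc25a39 from Slc25a40 and −0.99 for Slc25a33 from Slc25a36, each negative in 6 of 6 and each with overlap between labels. It was −0.12 for Slc25a4 from Slc25a5, negative in 5 of 6, and 0.22 for the mitoferrins Slc25a28 from Slc25a37, negative in 3 of 6.

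**Figure D4:**
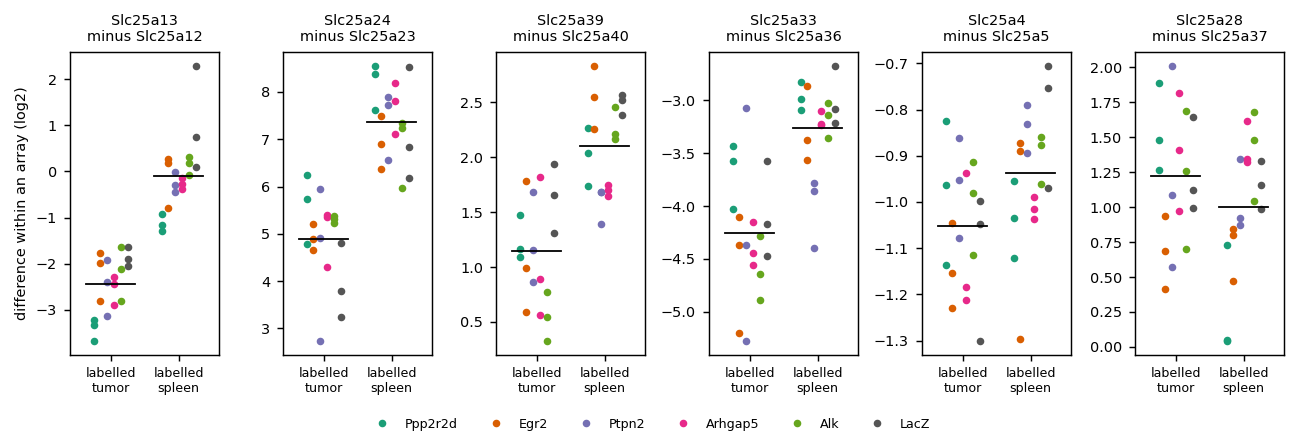
Within-array log2 difference between the members of 6 pairs, labelled tumor left of labelled spleen, 18 arrays each. The Slc25a13 to Slc25a12 difference of every labelled tumor array lies below those of the labelled spleen arrays.

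Each hairpin was also set against LacZ of the same label, to ask whether a carrier differed with the hairpin. The 5 comparisons of a label share the LacZ arrays. In labelled spleen, 6 members passed for Ppp2r2d, 2 for Egr2, 6 for Ptpn2, 3 for Arhgap5 and 2 for Alk, where 12.8%, 3.23%, 9.58%, 8.89% and 7.40% of all genes passed. In labelled tumor no member passed with limma in any of the 5, where 0.995%, 0.0275%, 0.764%, 0.368% and 0.00550% of genes did, and 3, 2, 5, 1 and 6 members had an unadjusted p under 0.05.

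Slc25a27 was the member lower in every hairpin in labelled spleen. It read −1.73, −3.14 and −2.83 in Ppp2r2d, −2.27, −2.48 and −1.55 in Egr2 and −2.99, −3.12 and −2.60 in Ptpn2. It read −2.45, −2.62 and −2.88 in Arhgap5, −1.46, −2.26 and −1.95 in Alk and −0.25, −0.12 and −0.93 in LacZ. All 15 hairpin arrays lay below the 3 LacZ arrays, and how many of all genes separate in this way was not counted. The differences from LacZ were −2.13, −1.67, −2.47, −2.22 and −1.46 in Ppp2r2d, Egr2, Ptpn2, Arhgap5 and Alk (limma, adjusted p = 0.000449, 0.0182, 0.000382, 0.000773 and 0.0205).

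Of the 19 hairpin calls, those of Slc25a27 in Ppp2r2d, Ptpn2 and Arhgap5 were the 3 that held under every alternative that kept LacZ as the comparison. Set against the other 4 hairpins instead, Slc25a27 differed by −0.18, −0.60 and −0.29 there and did not pass (limma, adjusted p = 1, 0.855 and 1). The Egr2 call ended without LacZ labelled spleen replicate 2 (limma, adjusted p = 0.0627), Egr2 replicate 1 (0.0909) or Egr2 replicate 2 (0.0759). The Alk call ended without LacZ replicate 2 (limma, adjusted p = 0.0849), Alk replicate 2 (0.0888) or Alk replicate 3 (0.0755). LacZ labelled spleen arrays also stood apart in correlation and Gapdh difference, as given above. Their summed macrophage markers were 5.40 to 6.02, against 7.74 to 8.20 in Alk, 6.05 to 7.09 in Arhgap5, 6.60 to 6.71 in Ptpn2, 6.65 to 6.98 in Egr2 and 5.72 to 6.45 in Ppp2r2d. Their summed melanocyte markers were 6.79 to 7.54, against 8.25 to 8.52 in Alk and 7.41 to 7.56 in Arhgap5. The same sum was 7.74 to 8.45 in Ptpn2, 6.96 to 8.05 in Egr2 and 6.90 to 7.49 in Ppp2r2d. Summed erythroid markers were 2.51 to 2.59 in Arhgap5 and 1.14 to 2.31 in the other groups labelled spleen. The part of these in the carriers' differences was not tested.

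In labelled tumor Slc25a27 read −0.92, 0.50 and 0.25 in Ppp2r2d, 0.11, −0.35 and −0.95 in Egr2 and −1.01, 0.12 and −0.07 in Ptpn2. It read 0.05, 0.37 and 0.29 in Arhgap5, 0.89, 1.39 and 1.14 in Alk and −0.53, 0.50 and −0.34 in LacZ. The tissue difference of Slc25a27 differed among the 6 transductions (limma F test, adjusted p = 0.0098), and without LacZ it did not pass (limma, adjusted p = 0.463). All 4 of its probe sets were lower in every hairpin than in LacZ in labelled spleen. They disagreed on the LacZ tissue difference, with 0.31 for the probe set used and −0.56, 1.31 and 1.43 for the others, of which the positive ones were called. In a limma F test over all probe sets the used one had adjusted p = 0.0136 and the others 0.0916, 0.172 and 0.268.

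Slc25a44 was higher than LacZ in labelled spleen in 4 hairpins. It read 3.06, 3.42 and 3.29 in Ppp2r2d, 2.77, 3.13 and 3.66 in Ptpn2, 2.91, 3.36 and 3.34 in Arhgap5 and 3.47, 3.31 and 3.32 in Alk, against 1.20, 2.31 and 2.70 in LacZ. These hairpin arrays lay above all 3 LacZ arrays, a separation that was not counted over all genes either. The differences were 1.19, 1.11, 1.13 and 1.30 (limma, adjusted p = 0.0254, 0.043, 0.0419 and 0.0239). Without LacZ labelled spleen replicate 1, the lowest array, none of the 4 passed (limma, adjusted p = 0.139, 0.182, 0.179 and 0.109). None of the 4 passed with the mean of its probe sets (limma, adjusted p = 0.142, 0.219, 0.323 and 0.226). The same held with the compared arrays alone (limma, adjusted p = 0.112, 0.153, 0.13 and 0.0932).

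Slc25a13 read 2.44, 2.25 and 3.00 in Ppp2r2d labelled spleen and 5.65, 3.97 and 2.99 in LacZ labelled spleen. The ranges touched, and the difference of −1.64 (limma, adjusted p = 0.0104) was −0.92 without LacZ replicate 1 (limma, adjusted p = 0.091) and −1.48 without Ppp2r2d replicate 2 (limma, adjusted p = 0.0694). Slc25a42 read 0.45, 1.22 and 1.66 in Ppp2r2d and 0.06, −0.43 and 0.12 in LacZ, without overlap, which was not counted over all genes. Its difference of 1.19 (limma, adjusted p = 0.00729) did not pass without Ppp2r2d replicate 3 (0.0769).

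Slc25a17 read 4.40, 4.38 and 4.41 in Ppp2r2d and 4.23, 3.77 and 4.67 in Ptpn2, against 2.94, 4.04 and 3.28 in LacZ, differences of 0.98 and 0.80 (limma, adjusted p = 0.0136 and 0.049). The Ppp2r2d call ended without LacZ replicate 1 (limma, adjusted p = 0.0725) or Ppp2r2d replicate 2 (0.0547), and with the mean of its probe sets the difference was 0.15 (0.751). The Ptpn2 call ended without LacZ replicate 1 (limma, adjusted p = 0.161) or 3 (0.0925) or Ptpn2 replicate 1 (0.134) or 3 (0.222), and under both normalizations. Slc25a2 was lower in Ppp2r2d and Egr2 by −1.27 and −1.53, and Slc25a54 in Ptpn2 and Arhgap5 by −1.32 and −1.59. In Ptpn2, Slc25a26 was higher by 1.03 and Slc25a33 lower by −0.95. Each of these 6 calls ended without at least 1 array.

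Differences among all 6 transductions were tested within each label. In labelled spleen 4 members passed (all genes 12.2%): Slc25a27, Slc25a35, Slc25a32 and Slc25a17 (limma F test, adjusted p = 0.000362, 0.0146, 0.023 and 0.0357). Slc25a35 was lowest in Arhgap5, at −0.79, −1.79 and −1.38, and the other 15 arrays lay between −0.82 and 0.27. Slc25a32 read 2.52, 2.71 and 2.88 in Ppp2r2d and 3.96, 4.18 and 3.86 in Alk, the groups at the ends of its order. With LacZ left out, Slc25a32 and Slc25a35 were the 2 members that passed (limma, adjusted p = 0.0228 and 0.0132).

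Against the other 4 hairpins, Slc25a35 was lower in Arhgap5 labelled spleen by −1.09 (limma, adjusted p = 0.0164) and Slc25a32 in Ppp2r2d labelled spleen by −0.98 (limma, adjusted p = 0.0123). The F test call of Slc25a17 ended with the mean of its probe sets (limma, adjusted p = 0.763) and without any 1 of 10 arrays (0.0525 to 0.0832), namely LacZ 1 and 3, the 3 Ppp2r2d arrays, Ptpn2 1 and 3, Arhgap5 1 and 3 and Alk 3. The F test call of Slc25a35 ended without Arhgap5 replicate 2 (limma, adjusted p = 0.0919) or replicate 3 (0.0558), and after quantile normalization (0.0889). That of Slc25a32 ended without Ppp2r2d replicate 1 (limma, adjusted p = 0.0844), Ppp2r2d replicate 2 (0.0699) or Alk replicate 2 (0.0522). With the mean of its probe sets Slc25a32 did not pass either (limma F test, adjusted p = 0.28).

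In labelled tumor 4 members passed (all genes 11.0%): Slc25a54, Slc25a30, Slc25a27 and Slc25a33 (limma F test, adjusted p = 0.00401, 0.0392, 0.0467 and 0.0467). Slc25a54 read −3.04, −3.37 and −3.65 in Ppp2r2d, −1.17, −1.11 and −2.15 in Egr2 and −1.45, −2.71 and −0.71 in Ptpn2. It read −2.37, −1.87 and −2.13 in Arhgap5, −1.09, −1.77 and −1.75 in Alk and −3.59, −2.29 and −2.58 in LacZ. Ppp2r2d and LacZ were the low groups. Against the other 4 hairpins it was lower in Ppp2r2d by −1.66 (limma, adjusted p = 0.000904), and Slc25a33 was higher there by 0.99 (limma, adjusted p = 0.00443). The F test call of Slc25a54 ended after quantile normalization (limma, adjusted p = 0.0923) and with the labelled tumor arrays alone (0.104). Of its highest readings, −0.71 and −1.11 came from Ptpn2 replicate 3 and Egr2 replicate 2, which are among the arrays of raised lowest value. The calls of Slc25a27, Slc25a30 and Slc25a33 ended under many of the alternatives, single arrays included.

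The tissue difference of 2 members differed among transductions (all genes 9.10%), Slc25a27 as above and Slc25a54 (limma F test, adjusted p = 0.0048). Slc25a54 differed by 1.56, 1.57, 1.34 and 1.41 in Egr2, Ptpn2, Arhgap5 and Alk, and by −0.38 in Ppp2r2d and −0.95 in LacZ. The test did not pass after quantile normalization (limma, adjusted p = 0.161), after cyclic loess (0.0554) or without LacZ (0.116).

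**Figure D5:**
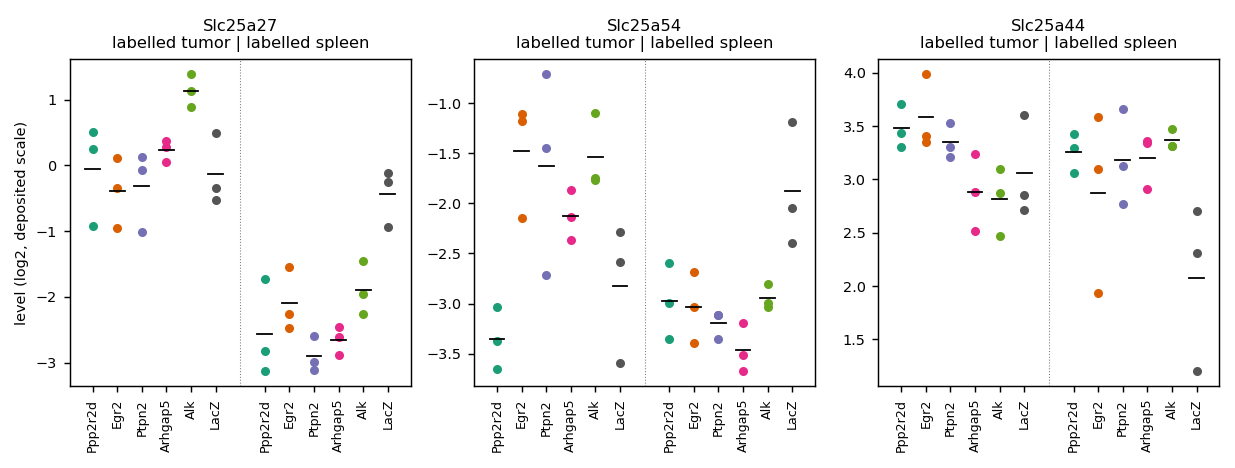
Log2 level of Slc25a27, Slc25a54 and Slc25a44 on the 3 arrays of each of the 12 groups, labelled tumor left of labelled spleen and hairpins left of LacZ, with the group mean as a bar. Slc25a27 is highest in LacZ among the labelled spleen groups.

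Genes that work with the carriers were read from lists, in the comparison averaged over transductions. In that comparison 33.1% of all genes were called lower and 37.6% higher. Genes of the pathway that inserts carriers into the inner membrane were lower in 11 of 13 and higher in none, with a median of −1.0 against 0.13 over all genes. Tomm40, the outer membrane pore, fell by 1.67, and the chaperones Timm8b and Timm13 by 1.62 and 1.51. Of 4 family members with other symbols, Mtch1 and Mtch2 were lower (−1.52 and −1.60) and the uncoupling protein gene Ucp1 was higher (0.66).

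Partners of Slc25a13, Slc25a11 and Slc25a1 in the malate-aspartate shuttle and citrate export were lower in 8 of 11 and higher in none, with a median of −0.54. Got2 and Got1, the shuttle's aminotransferases, were lower by −1.20 and −0.74, and Idh1, which oxidises isocitrate in the cytosol, by −1.53. Acly, Me1 and Idh2 differed by −0.17, −0.31 and −0.14 and did not pass (limma, adjusted p = 0.109, 0.156 and 0.211). Fatty acid oxidation genes, which use the acylcarnitines that Slc25a20 imports, were lower in 12 of 14 and higher in none, with a median of −0.67, among them Etfb (−1.77), Acadl (−1.58) and Cpt2 (−1.48). Folate genes, the partners of Slc25a32, were lower in 7 of 9 and higher in 2, with a median of −1.24, among them Tyms (−2.02), Mthfd2 (−1.99), Aldh1l2 (−1.78) and Shmt2 (−1.29).

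Genes of iron-sulfur and heme synthesis, which use the iron that mitoferrins import, were lower in 8 of 14 and higher in 2, with a median of −0.45, among them Alas1 (−1.67). Other transporters of the inner membrane were lower in 9 of 13 and higher in 1, with a median of −0.61. Mcu, the calcium channel, and Mpc1, a pyruvate carrier subunit, were lower by −1.21 and −1.20, and Sfxn3 was higher by 0.68.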

How the data were processed

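Log2 expression values of 36 Affymetrix mouse arrays were used as deposited; per the submitters' processing notes they were made with RMA. The RMA version is not given in the sources used here, and how values were centred is unknown. Of 45101 probe sets, 34945 had a single symbol, 932 several and 9211 were not listed in the platform annotation. Each gene was read from the probe set with the highest mean. Levels of different genes were not ranked, since probe sets differ in brightness. Arrays give no count depth, and the 3 arrays per group limit the precision.

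One limma (3.58.1, R 4.3.3) fit of 12 group means to 18193 genes gave all contrasts, with Benjamini-Hochberg adjustment over genes and a threshold of 0.05; it was tested on simulated data. Named genes are members, targeted genes, up to 4 called genes by size of each partner list and defining markers. Members and lists were chosen with earlier results of these data known. Figures were drawn with matplotlib 3.10.9. Alternatives were quantile normalization, cyclic loess, equal array medians, a filter on low values, averaging a gene's probe sets, a replicate block, the compared groups' arrays alone, the other 4 hairpins in place of LacZ, and leaving out arrays.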

Additional observations from a re-analysis of the deposited data

Results flagged for a closer look

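The difference of Slc25a27 between labelled tumor and labelled spleen was not the same in the 6 transductions (limma F test of the interaction, adjusted p = 0.0098). It was 1.71 to 3.03 in the 5 hairpins and 0.31 in LacZ. Without LacZ this test did not pass (limma F test, adjusted p = 0.463). The difference of Slc25a54 also depended on the transduction (limma F test of the interaction, adjusted p = 0.0048). It was 1.34 to 1.57 in Egr2, Ptpn2, Arhgap5 and Alk, −0.38 in Ppp2r2d and −0.95 in LacZ. The Slc25a54 test did not pass after quantile normalization, after cyclic loess or without LacZ (limma F test, adjusted p = 0.161, 0.0554 and 0.116).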

How the results depend on the processing

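Of the 29 differences called over the mean of transductions, 18 kept direction and call under all 43 or 44 alternatives; of 82 calls in single transductions 37 did, and of 19 hairpin calls 3 did under those that kept LacZ as the comparison and none against the other 4 hairpins. Not called or weakly called mean differences changed sign after quantile normalization and cyclic loess: Slc25a3 (0.0083, 0.10), Slc25a12 (0.028, 0.0028), Slc25a18 (−0.25, −0.27), Slc25a22 (0.098, 0.070), Slc25a31 (−0.024, −0.12), Slc25a37 (0.11, 0.10), Slc25a46 (0.083, 0.019), Slc25a48 (−0.26, −0.28) and Slc25a51 (0.29, 0.23). In Alk, Slc25a31 (−0.048, −0.21) and Slc25a48 (−0.071, −0.091) did so too. Among the mean differences, Slc25a18 and Slc25a48 were called lower under both normalizations, and Slc25a51, Slc25a28 and Slc25a44 higher. The mean of all probe sets reversed Slc25a3 (0.49, then called), Slc25a12 (0.33, then called) and Slc25a51 (0.14, not called). It also reversed Slc25a17 in Ptpn2 labelled spleen (−0.15) and in the Alk tissue comparison (0.049), and Slc25a42 in the tissue comparisons of Ptpn2 (0.37) and Arhgap5 (0.16). Slc25a51 was 0.000456 over 5 hairpins and −0.043 to 0.031 with single arrays left out.

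Called members numbered 17 with cyclic loess in the Ppp2r2d tissue comparison (11 as reported). With the compared groups' arrays alone they numbered 20 in Ppp2r2d, 8 in Egr2 (14), 6 in Ptpn2 (16) and 4 in LacZ (10), and in the hairpin comparisons 1 in Ppp2r2d, Ptpn2 and Alk labelled spleen, 4 in Alk labelled tumor and 0 in the F test of labelled tumor; fewer arrays then estimate the spread. Against the other 4 hairpins they numbered 2, 0, 0, 1 and 0 in labelled spleen for Ppp2r2d, Egr2, Ptpn2, Arhgap5 and Alk, and 5 for Ppp2r2d and 1 for Ptpn2 in labelled tumor. Egr2 labelled spleen had 1 with quantile normalization, cyclic loess or equal medians, Ptpn2 labelled spleen 2 with quantile normalization, and Alk labelled spleen 1 with cyclic loess. The F test of labelled spleen gave 8 with quantile normalization, 11 with cyclic loess and 2 without LacZ, that of labelled tumor 2 with the mean of probe sets, and that of the tissue difference 0 without LacZ. Without the 3 arrays of raised lowest value the counts were 6 in Alk labelled tumor, 12 in the F test of labelled tumor and 6 in that of the tissue difference. The cause was not tested.

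Leaving out single arrays gave 27 to 32 calls over the mean of transductions, 10 to 19 in the Ptpn2 tissue comparison, 7 to 12 in that of LacZ, 2 to 7, 0 to 2, 1 to 4, 1 to 4 and 0 to 2 in labelled spleen for Ppp2r2d, Egr2, Ptpn2, Arhgap5 and Alk, 0 to 5 and 0 to 3 in labelled tumor for Ptpn2 and Alk, and 2 to 6, 1 to 9 and 2 to 5 in the F tests of labelled spleen, labelled tumor and the tissue difference. Whether equal replicate numbers mark paired samples is not given by the labels. Over 18 such pairs the correlation of deviations was −0.236 to 0.244, above 0.1 in 4. With 3 arrays per group of unequal quality, these correlations cannot decide it. The replicate block gave 29 calls over the mean of transductions, 2 in Ptpn2 labelled spleen and 2 in the F test of labelled tumor.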
